A study of Mus musculus with 6 samples.

Results

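AMP-activated protein kinase (AMPK) is assembled from 1 catalytic α, 1 scaffold β and 1 regulatory γ subunit, and each type has more than 1 gene. The transcripts of 6 of these genes were measured in cells sorted from mouse lung tumours: Prkaa1 (α1), Prkaa2 (α2), Prkab1 (β1), Prkab2 (β2), Prkag1 (γ1) and Prkag2 (γ2). They were taken by their symbols. All 6 were found, each on 1 row, among the 31055 features of the deposited table. The remaining γ gene, Prkag3 (γ3), was read beside them.

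AMPK senses the energy state of a cell. AMP and ADP bind the γ subunit when ATP runs low, and the kinase becomes active once a threonine in the activation loop of the α subunit is phosphorylated. The tumour suppressor kinase LKB1, encoded by Stk11, is the main kinase of that threonine, and CAMKK2 is another. Active AMPK restrains fatty acid and sterol synthesis and mTORC1, and favours fatty acid oxidation, autophagy and mitochondrial division. In the normal lung, alveolar type II (ATII) cells make surfactant lipid, and alveolar type I (ATI) cells form the thin gas-exchange surface.

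The tumours came from 6 mice that carried Lkb1XTR on both copies of Lkb1 and the Cre reporter Rosa26LSL-tdTomato. Lentiviral Cre given through the trachea inverts the XTR gene trap in the first intron of Lkb1, so that the transcript is cut short and joined to eGFP. The 3 Restored mice also carried FLPo-ERT2, a recombinase that deletes the trap once tamoxifen is given, and all 3 received tamoxifen. Of the 3 NonRestored mice, 1 had FLPo-ERT2 and received vehicle, and of the 2 without FLPo-ERT2 1 received tamoxifen and 1 vehicle. Tumours had grown for 20 weeks and treatment lasted 2 weeks, with tamoxifen in doses of 4 mg. Tumours were initiated in young adult mice. The lung cells that the lentivirus reached and the promoter of its Cre are not given in the sources used here. Cells negative for CD45, CD31, F4/80 and Ter119 and positive for tdTomato were sorted from dissected tumours and profiled by 10x 3′ single-cell RNA sequencing, in which each captured transcript is counted once by its unique molecular identifier (UMI).

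The deposited matrix pools all libraries, with 16017 cells and 266713311 UMIs, and no file used here ties a cell to a mouse. It was therefore treated as 1 sample. No test between mice was possible and none is given, cells were never assigned to the Restored or NonRestored mice, and a difference between mice cannot be told apart from one between gates or trap states. Levels are counts per 1000000 UMIs (CPM), summed over the cells of a group. Intervals are exact 95% intervals (Poisson for levels, conditional binomial for ratios, Clopper-Pearson for shares) and cover counting error only. Because 1 UMI stands for 1 captured transcript end, levels of different genes are set side by side without division by length, although capture can differ between genes. Cell barcodes shared between libraries could not be counted.

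Of all cells, 12183 had at least 500 genes and at most 20% mitochondrial UMIs. The gates were set in UMIs per 10000. The ATII gate (Sftpc of at least 500, Hopx under 2, Krt8 plus Krt18 under 50) took 6975 cells, the ATI gate (Hopx of at least 15, Krt8 plus Krt18 under 50) 956, and the keratin-high gate (Krt8 plus Krt18 of at least 50) 1183. The other 3069 cells passed no gate. Median depth was 21660 UMIs in the ATII gate, 11796.5 in the ATI gate and 23490 in the keratin-high gate, and the median mitochondrial share was 4.28%, 2.21% and 1.96%. Markers that the gates did not use went with the names. Of 10 ATII markers, 9 were over 1.5-fold lower in the ATI gate and all 10 in the keratin-high gate than in the ATII gate, all 10 ATI markers were over 1.5-fold higher in the ATI gate than in the ATII gate, and all 8 markers of keratin-expressing transitional cells were over 1.5-fold higher in the keratin-high gate than in the ATII gate. The ATI and transitional sets were not particular to their gates. Against the ATII gate, 6 of the 8 transitional markers were also over 1.5-fold higher in the ATI gate. So were 7 of the 8 ATI markers with at least 10 CPM in the keratin-high gate. Between the keratin-high and ATI gates, 6 of 8 transitional markers were higher and 9 of 10 ATI markers lower. Summed endothelial, myeloid and lymphoid markers each stayed between 0.130 and 8.07 CPM in the 3 gates. Ciliated-cell markers, carried mostly by Tppp3, summed to 25.3 CPM in the ATII gate, 140 CPM in the ATI gate and 287 CPM in the keratin-high gate, while club-cell markers summed to 81.1, 30.6 and 7.76 CPM, fibroblast markers to 30.9, 9.82 and 10.6 CPM and cycling markers to 40.1, 2.55 and 35.1 CPM in the same order. The part of these markers in the results was not tested.

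The α1 and α2 genes are separate loci that code for the same amino acids around the activation-loop threonine, and that stretch is shown here because the results below turn on which of these genes supplies the catalytic subunit. On GRCm38 with the GENCODE M21 annotation, Prkaa1 lies on chromosome 15 from 5143861 to 5181899 on the plus strand, and Prkaa2 on chromosome 4 from 105029874 to 105109890 on the minus strand. The 57 coding bases around the threonine lie within exon 5 of 9 in both genes, at chr15:5169940-5169996 on the plus strand for Prkaa1 and at chr4:105049354-105049410 on the minus strand for Prkaa2. They are written 5′ to 3′ in the direction of transcription, with the codon of the threonine that LKB1 phosphorylates in capitals:
Prkaa1: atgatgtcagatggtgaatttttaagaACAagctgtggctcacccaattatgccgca
Prkaa2: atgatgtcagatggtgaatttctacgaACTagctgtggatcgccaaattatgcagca
Of the 57 bases, 50 are identical, and all 19 codons stand for the same amino acid although only 12 are the same triplet. The threonine is codon 172 of 552 in Prkaa2, and codon 183 of 559 or 174 of 550 in the annotated forms of Prkaa1. The 3′ assay counts transcript ends and reads neither this codon nor its phosphorylation, so nothing here measures kinase activity.

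The other members are Prkab1 (chromosome 5, 116013586 to 116024508, minus strand), Prkab2 (chromosome 3, 97658193 to 97673812, plus strand), Prkag1 (chromosome 15, 98812797 to 98831521, minus strand) and Prkag2 (chromosome 5, 24862744 to 25100642, minus strand). None of the 6 overlaps an annotated gene on its own strand. All but Prkaa2 overlap 1 or more on the opposite strand, and whether counting used the strand is not given in the sources used here.

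The summed level of the 6 genes was nearly level across the gates while the isoforms within it were not. In total they gave 115.1 CPM in ATII-gated cells (113.4 to 116.8), 124.0 CPM in ATI-gated cells (118.1 to 130.1) and 122.1 CPM in keratin-high cells (118.2 to 126.1). Prkab1 and Prkag1 were the most abundant in each gate, Prkag2 came next, and Prkaa1, Prkaa2 and Prkab2 were the lowest. Set against ATII-gated cells, the largest differences in keratin-high cells were in the scarcer isoforms, with Prkaa2 lower and Prkab2 higher.

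**Figure D1:**
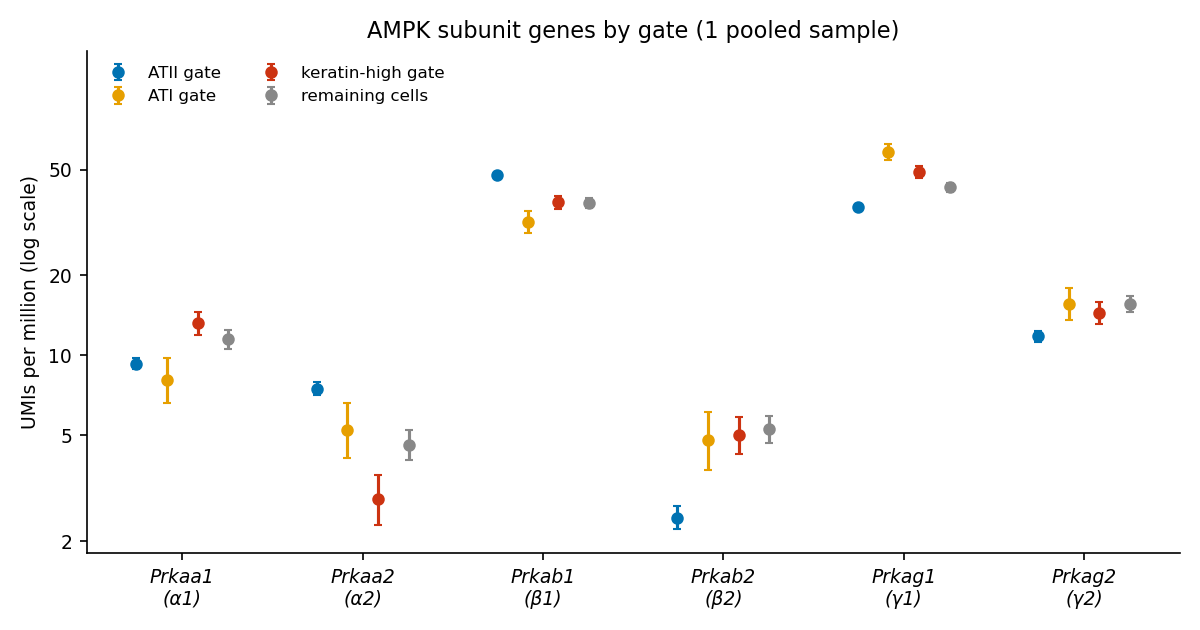
Levels of the 6 AMPK subunit genes in CPM (log axis) in ATII-gated, ATI-gated, keratin-high and the remaining filtered cells, as points with exact 95% Poisson intervals for counting error only. Prkaa2 runs from 7.49 in ATII-gated cells to 2.87 in keratin-high cells, and Prkab2 from 2.45 to 5.02, while Prkab1 and Prkag1 stay between 31.8 and 58.4 in every gate.

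A difference of 1.5-fold was used as the size to report, and the members' counts were read against all genes. Between the ATI and ATII gates, 2 members were past that size upward (Prkab2 and Prkag1) and 1 downward (Prkab1, only just past it). Among the 11181 genes with at least 2 CPM in either gate, 31.3% were as much higher and 11% as much lower, and past 1.5-fold in either direction were 40.1% of those with at least 10 CPM. Between the keratin-high and ATII gates, 1 member was higher (Prkab2) and 1 lower (Prkaa2), where 34% and 10.4% of genes with at least 2 CPM were higher and lower, and 43.3% of those with at least 10 CPM were past 1.5-fold. Between the keratin-high and ATI gates, 1 member was higher (Prkaa1) and 1 lower (Prkaa2), against 14.6% and 12.3% of genes, and 22% past 1.5-fold with at least 10 CPM. These counts are near what the share of all genes gives for 6 genes, so the number of members past 1.5-fold sets the family apart in none of these comparisons. The comparisons with the ATII gate share its cells.

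The middle of all genes was itself shifted between gates. Sftpc took 15.5% of the UMIs of ATII-gated cells, 4.75% in ATI-gated and 1.92% in keratin-high cells, and its part in the shift was not tested. Over genes with at least 10 CPM, the median log2 ratio was 0.38 for ATI over ATII cells, 0.39 for keratin-high over ATII cells and 0.01 for keratin-high over ATI cells. The median of the 6 members was 0.14, 0.36 and -0.02. Relative to the median of all genes, the log2 ratio of keratin-high over ATII-gated cells was -1.77 for Prkaa2, -0.73 for Prkab1, 0.65 for Prkab2, 0.12 for Prkaa1, 0.05 for Prkag1 and -0.09 for Prkag2. On this scale Prkab1 also passed 1.5-fold, and Prkaa1, Prkag1 and Prkag2 were close to the middle of all genes. For ATI over ATII cells the values relative to the median were -0.578 for Prkaa1, -0.89 for Prkaa2, -0.96 for Prkab1, 0.60 for Prkab2, 0.31 for Prkag1 and 0.03 for Prkag2, so on this scale Prkaa2 passed 1.5-fold and Prkag1 did not. Prkaa1 fell just short of it, and the interval of its log2 ratio (-0.50 to 0.08) lies below the median of all genes.

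**Figure D2:**
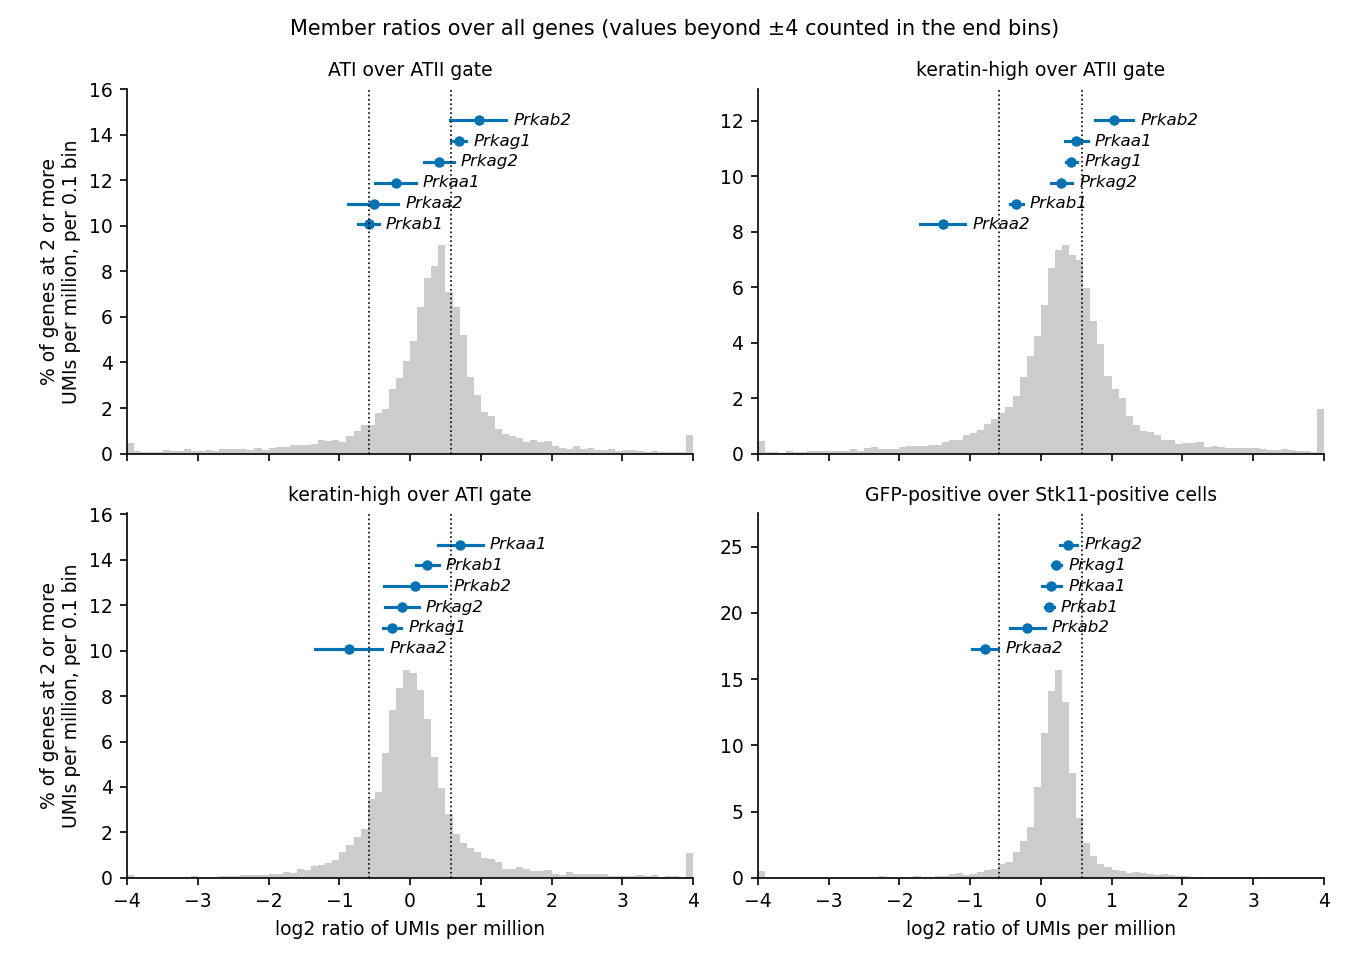
The log2 ratios of the 6 members (points with exact 95% intervals, stacked above the bars in order of their ratio) and the distribution of log2 ratios of all genes with at least 2 CPM in either group (grey bars, percent of genes per bin), for each comparison of cell groups, with dotted lines at 1.5-fold. For keratin-high over ATII cells Prkaa2 lies at -1.38 and Prkab2 at 1.04, and for GFP-positive over Stk11-positive cells Prkaa2 lies at -0.79 while the other 5 lie between -0.19 and 0.39.

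Of the catalytic subunits, Prkaa2 was highest in ATII-gated and lowest in keratin-high cells, and of the 3 gates Prkaa1 was highest in the keratin-high one. Prkaa2, whose product α2 is the main catalytic isoform of skeletal and heart muscle, was at 7.49 CPM in ATII-gated cells (7.07 to 7.93, 1210 UMIs), 5.25 CPM in ATI-gated cells (4.09 to 6.63, 70 UMIs) and 2.87 CPM in keratin-high cells (2.30 to 3.54, 88 UMIs). The keratin-high interval lies below both others, while the ATI and ATII intervals are also apart over all cells of these gates, though not within cells of like mitochondrial share under 5%, as given below. Cells of no gate were at 4.59 CPM. The keratin-high level was 2.61-fold below the ATII level (2.10 to 3.28) and 1.83-fold below the ATI level (1.32 to 2.53), and the ATI level was 1.43-fold below the ATII level (1.12 to 1.84), a ratio that ran from 1.28-fold to 2.87-fold lower under other settings. Prkaa1, the more widely expressed catalytic gene, ran in another order, with 9.31 CPM in ATII-gated cells (8.85 to 9.79), 8.09 CPM in ATI-gated cells (6.64 to 9.77) and 13.2 CPM in keratin-high cells (12.0 to 14.6). For Prkaa1 the ATI and ATII intervals overlap, and the ratio of 0.869 spans no change (0.708 to 1.06). The keratin-high level of Prkaa1 was 1.42-fold the ATII level (1.27 to 1.58) and 1.63-fold the ATI level (1.32 to 2.04). By depth up to 30000 UMIs, the keratin-high over ATII ratio of Prkaa1 was uneven. It was 0.704 (0.222 to 1.72) under 10000 UMIs, 1.19 (0.887 to 1.58) from 10000 to 20000 and 1.69 (1.37 to 2.08) from 20000 to 30000. The part of depth in it was not tested.

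The makeup of the catalytic pool differed accordingly. Prkaa2 supplied 44.6% of the catalytic UMIs in ATII-gated cells (42.7% to 46.5%), 39.3% in ATI-gated cells (32.1% to 46.9%) and 17.8% in keratin-high cells (14.6% to 21.5%). The first intervals overlap and the last lies below both. The ATI share was lower under some other settings, as given in the section on processing below. Outside the gates, among cells chosen by endothelial, fibroblast or myeloid genes, Prkaa2 was 15.2% of 33 catalytic UMIs in 125 endothelial-like cells, 12.7% of 71 in 233 fibroblast-like cells, and 0 of 42 in 73 myeloid-like cells, which allows a level of up to 1.74 CPM at 3 counts, the limit used for a count of 0 (the exact interval reaches 2.14 CPM). Prkaa1 in these cells was above its level in any gate, at 17.7 CPM in endothelial-like (11.8 to 25.6), 16.5 CPM in fibroblast-like (12.6 to 21.1) and 24.3 CPM in myeloid-like cells (17.5 to 32.9), although the first 2 intervals overlap that of keratin-high cells. A share within a subunit type does not depend on how much of a library Sftpc takes.

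**Figure D3:**
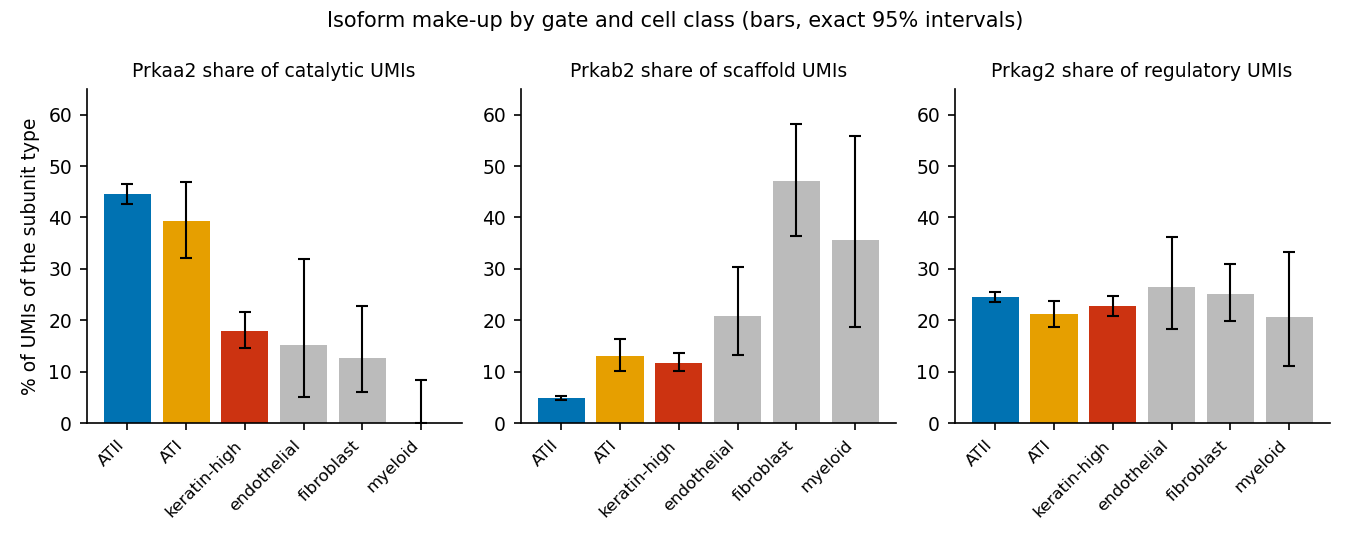
Share of the UMIs of each subunit type that came from Prkaa2 (catalytic), Prkab2 (scaffold) and Prkag2 (regulatory, of Prkag1 plus Prkag2), in percent, for the 3 gates and for endothelial-like, fibroblast-like and myeloid-like cells outside them, as bars with exact 95% binomial intervals for counting error only. The Prkaa2 share is 44.6% in ATII-gated, 39.3% in ATI-gated and 17.8% in keratin-high cells, whereas the Prkag2 share of Prkag1 plus Prkag2 UMIs stays between 20.7% and 26.5% in all 6 groups. Prkag3, left out of that share, was at 7.12 CPM in ATI-gated and 0.0371 CPM in ATII-gated cells.

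The level of Prkaa2 was lower in cells with more keratin. From cells with Krt8 plus Krt18 under 5 UMIs per 10000 to cells with 100 or more, it was 8.02, 8.05, 6.01, 4.16, 4.19, 3.15 and 2.23 CPM over 7 bins. Prkaa1 over the same bins was 11.0, 8.61, 9.61, 10.2, 10.8, 12.6 and 14.6 CPM, lowest in the second bin and highest in the last. Prkab2 was 4.03, 2.60, 3.14, 3.29, 3.90, 4.89 and 5.31 CPM, again lowest in the second bin and highest in the last. The bins take in all filtered cells, among them the 431 endothelial-like, fibroblast-like and myeloid-like cells outside the gates. Those had 18.7 CPM of Prkaa1 and 10.0 CPM of Prkab2, and their part in the bins was not tested. Along Sftpc, Prkaa2 was split between low and high cells, at 3.74 to 3.94 CPM in the 3 bins under 500 UMIs per 10000 and from 6.57 to 7.56 CPM in the 3 bins from 500 up.

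**Figure D4:**
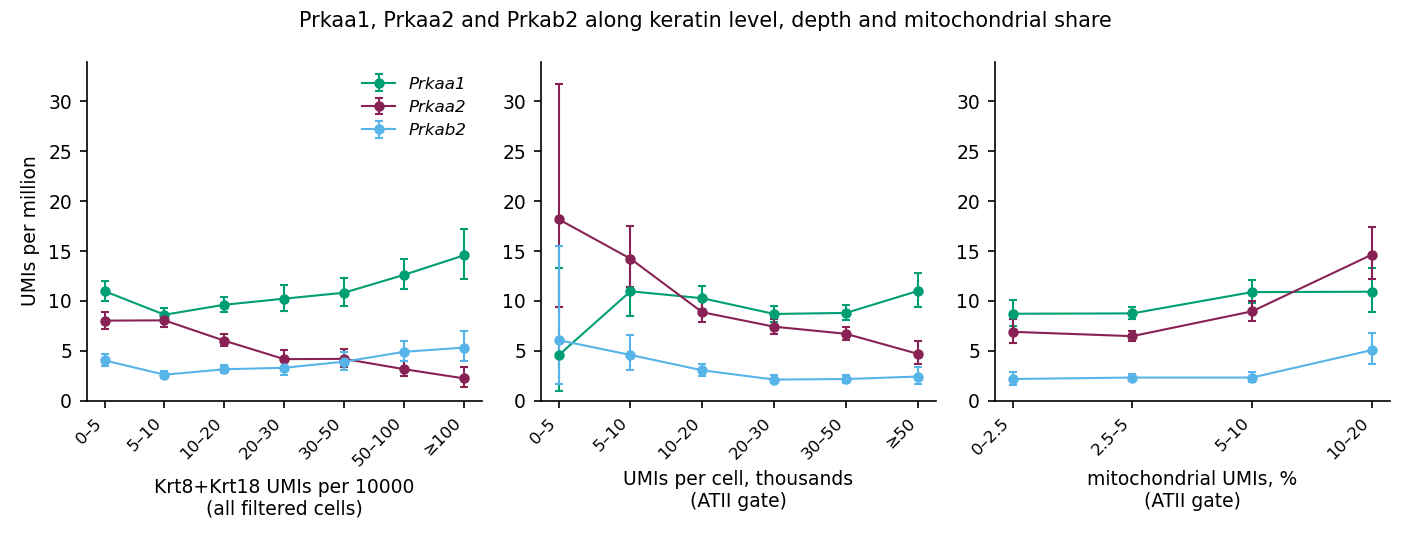
Levels of Prkaa1, Prkaa2 and Prkab2 in CPM with exact 95% Poisson intervals, for all filtered cells binned by Krt8 plus Krt18 (UMIs per 10000) and for ATII-gated cells binned by depth and by mitochondrial share. Prkaa2 goes from 8.02 in the lowest keratin bin to 2.23 in the highest, and within the ATII gate from 18.2 in cells under 5000 UMIs to 4.69 in cells of 50000 or more.

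Depth and mitochondrial share moved with Prkaa2 inside the ATII gate, and their part in the differences between gates was not tested by any model. Over 6 depth bins from under 5000 to 50000 UMIs or more, Prkaa2 was at 18.2, 14.2, 8.86, 7.41, 6.70 and 4.69 CPM, a 3.88-fold range. Over 4 mitochondrial bins split at 2.5%, 5% and 10%, it was at 6.90, 6.46, 8.95 and 14.6 CPM. Prkaa1 ranged from 8.71 to 10.9 CPM over those mitochondrial bins and from 4.55 to 11.0 CPM over the depth bins, a 2.42-fold range whose lowest value rests on 3 UMIs. Over the depth bins Prkab2 had a 2.87-fold range, whose highest value rests on 4 UMIs, and Prkag2 a 2.19-fold range, whose highest value rests on 16. Within cells of like depth the keratin-high level of Prkaa2 was still below the ATII level, with ratios of 0.298, 0.515, 0.286 and 0.427 for cells under 10000, of 10000 to 20000, of 20000 to 30000 and over 30000 UMIs, all 4 with intervals under 1. Within cells of like mitochondrial share the ratio was 0.410 (0.298 to 0.557) under 2.5% and 0.508 (0.326 to 0.756) from 2.5% to 5%. From 5% to 10% there were 0 UMIs in 61 keratin-high cells, with an upper bound of 0.438 on the ratio, and above 10% the ratio of 0.422 rested on 1 UMI (0.0106 to 2.39). The ATI comparisons were less even. The ATI over ATII ratio of Prkaa2 by depth was 0.566, 0.540 and 0.313 up to 30000 UMIs. In deeper cells, 56 of them in the ATI gate, the levels were 7.86 CPM in ATI-gated and 6.28 CPM in ATII-gated cells, and the interval of the ratio spans no change (0.723 to 2.03). The keratin-high over ATI ratio by depth was 0.527, 0.954, 0.915 and 0.341, and only the last has an interval under 1 (0.192 to 0.635). By mitochondrial share the ATI over ATII ratio was 0.876 (0.611 to 1.24) under 2.5% and 0.729 from 2.5% to 5%, with an interval from 0.459 to above 1. These bins hold 558 and 293 of the 956 ATI-gated cells, and a difference was not detectable in either. From 5% to 10% the ratio of 0.266 (0.0320 to 0.968) rested on 2 ATI UMIs. The keratin-high over ATI ratio was 0.468 (0.313 to 0.702) under 2.5% and 0.697 (0.379 to 1.28) from 2.5% to 5%.

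Of the scaffold subunits, Prkab2 was the scarcer and the one that was higher outside the ATII gate. The β subunits hold the complex together and carry a glycogen-binding module. Prkab2 was at 2.45 CPM in ATII-gated cells (2.21 to 2.70, 395 UMIs), 4.80 CPM in ATI-gated cells (3.69 to 6.12, 64 UMIs) and 5.02 CPM in keratin-high cells (4.26 to 5.88, 154 UMIs). The ATI and keratin-high levels do not differ beyond their intervals, with a ratio of 1.05 (0.777 to 1.42), and both lie above the ATII level, 1.96-fold (1.48 to 2.56) and 2.05-fold (1.69 to 2.48). Prkab1 was at 47.8 CPM in ATII-gated cells (46.7 to 48.9), 31.8 CPM in ATI-gated cells (28.9 to 35.0) and 37.6 CPM in keratin-high cells (35.5 to 39.9). It was highest in the ATII gate, by just over 1.5-fold against ATI-gated cells (1.36 to 1.66) and by 1.27-fold against keratin-high cells. The Prkab2 share of scaffold UMIs was 4.87% in ATII-gated cells (4.41% to 5.36%), 13.1% in ATI-gated cells (10.2% to 16.4%) and 11.8% in keratin-high cells (10.1% to 13.6%). Within cells of like depth the ATI over ATII ratio of Prkab2 was uneven. It was 0.922 (0.404 to 1.92) under 10000 UMIs, 1.45 (0.888 to 2.29) from 10000 to 20000, 3.02 (1.82 to 4.81) from 20000 to 30000, and 1.67 (0.709 to 3.37) over 30000, so that a difference was detectable only in the range from 20000 to 30000. The part of depth in the result was not tested. The keratin-high over ATII ratio was 1.85 (0.631 to 4.48), 2.66, 2.37 and 1.82 over the 4 depth ranges, the last 3 with intervals above 1.

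Endothelial-like and fibroblast-like cells outside the gates had more Prkab2 than any gate. It was at 12.6 CPM in endothelial-like cells (20 UMIs) and 10.9 CPM in fibroblast-like cells (41 UMIs), and it was 47.1% of 87 scaffold UMIs in the latter (36.3% to 58.1%). Prkab1 was at 48.1 CPM in endothelial-like, 12.2 CPM in fibroblast-like and 10.4 CPM in myeloid-like cells. In the 431 endothelial-like, fibroblast-like and myeloid-like cells together Prkaa2 stood at 1.98 CPM (1.08 to 3.32, 14 UMIs), 26.4% of its ATII level, while Sftpc UMIs, which such cells should lack, stood at 1.20% of theirs. Prkab2 in the same cells was at 411% of its ATII level.

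Of the regulatory subunits, Prkag1 was the most abundant and highest in ATI-gated cells. Prkag1 was at 36.3 CPM in ATII-gated cells (35.4 to 37.2), 58.4 CPM in ATI-gated cells (54.3 to 62.6) and 48.9 CPM in keratin-high cells (46.5 to 51.5), and no pair of these intervals overlaps. The ATI level was 1.61-fold the ATII level (1.49 to 1.73) and the keratin-high level 1.35-fold (1.27 to 1.43), the latter near the shift of the median gene given above. By depth the ATI over ATII ratio of Prkag1 was 2.20 in cells under 10000 UMIs, 1.90 and 1.51 in the next ranges and 1.31 (1.07 to 1.59) in those over 30000. Along Hopx, in cells with low keratin, Prkag1 was 36.9 CPM in the lowest of 5 bins and 60.0 CPM in the highest. Prkag2, whose product carries a long amino-terminal extension in its longest form, was at 11.8 CPM in ATII-gated cells (11.3 to 12.3), 15.7 CPM in ATI-gated cells (13.6 to 17.9) and 14.4 CPM in keratin-high cells (13.1 to 15.8). The ATI and keratin-high intervals of Prkag2 overlap, and their ratio of 0.920 spans no change (0.779 to 1.09). The intervals of both ratios of Prkag2 to the ATII gate hold the median ratio of all genes. The Prkag2 share of Prkag1 plus Prkag2 UMIs was 24.5%, 21.2% and 22.7% in the ATII, ATI and keratin-high gates.

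Prkag3, known mainly from fast skeletal muscle, was highest in cells with high Hopx. It gave 6 UMIs in the ATII gate (0.0371 CPM, 0.0136 to 0.0809), 95 UMIs in the ATI gate (7.12 CPM, 5.76 to 8.70) and 25 UMIs in the keratin-high gate (0.815 CPM, 0.528 to 1.20). The ATI level was 192-fold the ATII level (84.9 to 535) and close to that of Prkaa1 in the same cells. Over 5 Hopx bins it was 0.0560 CPM in the lowest, 0.836 CPM in the next, and 6.26 and 8.22 CPM in the highest. With cells thinned to a common 5000 UMIs, 4.76% of ATI-gated cells had a Prkag3 UMI (3.42% to 6.42%) against 0.0148% of ATII-gated cells, and before thinning 8.37% against 0.0860%. Its neighbour on chromosome 1, Cyp27a1, a sterol hydroxylase gene on the opposite strand whose annotated end is 1030 bases away, was also higher there, at 4.87 CPM in ATI-gated and 0.0867 CPM in ATII-gated cells. In fibroblast-like cells Cyp27a1 gave 59 UMIs and Prkag3 gave 0, which allows up to 0.798 CPM at 3 counts (the exact interval reaches 0.981 CPM). Whether reads of one gene were counted for the other was not tested.

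Few cells held a UMI of every subunit type. ATII-gated cells held 2.67 member UMIs on average, ATI-gated cells 1.73 and keratin-high cells 3.16. A UMI of an α, a β and a γ member was found together in 14.4% of ATII-gated, 5.75% of ATI-gated and 17.9% of keratin-high cells, in the order of their depth. At a common 5000 UMIs, which left out 203, 115 and 93 shallower cells, the shares were 0.354%, 0.357% and 0.367%, and their intervals overlap. At that depth a Prkaa2 UMI was present in 4.13% of ATII-gated cells (3.67% to 4.64%), 2.85% of ATI-gated cells (1.84% to 4.22%) and 1.38% of keratin-high cells (0.772% to 2.26%), where the unthinned shares were 14.7%, 6.59% and 6.68%. A Prkab2 UMI was present in 1.24%, 2.73% and 2.94% of the thinned cells.

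The trap marks its own transcript, so cells were also split by it, with 3360 cells that held a GFP UMI and no Stk11 UMI, and 3367 that held a Stk11 UMI and no GFP UMI. The 29 cells with both were left out, and 5427 cells had neither. These are classes of cells and not the Restored and NonRestored mice. The classes were of like depth (medians of 24516.5 and 23635 UMIs) and not of like makeup. Of the GFP-positive cells 642 were keratin-high and 1742 in the ATII gate, and of the Stk11-positive cells 165 and 2353. Summed over each marker list, GFP-positive against Stk11-positive cells had 37775 against 60474 CPM of ATII markers, 4938 against 2197 CPM of keratin-high transitional markers, 79.2 against 22.8 CPM of cycling markers, 23.3 against 855 CPM of fibroblast markers and 18.1 against 1161 CPM of club-cell markers. ATI markers summed to 4330 against 2824 CPM and ciliated-cell markers to 122 against 34.3 CPM. Endothelial markers summed to 5.13 against 28.8 CPM, myeloid to 14.2 against 44.3 CPM and lymphoid to 0.256 against 0.292 CPM. The tdTomato reporter was at 9573 against 5279 CPM. The part of these in the results was not tested beyond the values within gates that follow.

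Prkaa2 was the only one of the 6 members past 1.5-fold between these classes. It was at 4.38 CPM in GFP-positive cells (3.96 to 4.84, 394 UMIs) and 7.57 CPM in Stk11-positive cells (6.99 to 8.17, 647 UMIs), 1.73-fold lower in the former (1.52 to 1.96). So 1 of 6 members was lower and 0 higher, where 5.84% of genes with at least 2 CPM were as much lower, 10.6% as much higher, and 11.6% of those with at least 10 CPM past 1.5-fold in either direction. The median log2 ratio of all genes with at least 10 CPM was 0.22, and relative to it Prkaa2 was at -1.01. Prkaa1 was at 10.5 and 9.44 CPM, Prkab1 at 46.1 and 42.4 CPM, Prkab2 at 2.98 and 3.40 CPM, and Prkag1 at 43.6 and 37.5 CPM. Prkag2 was at 14.2 CPM in GFP-positive cells and 10.8 CPM in Stk11-positive cells, a ratio of 1.31 (1.20 to 1.43). The Prkaa2 share of catalytic UMIs was 29.5% (27.1% to 32.0%) and 44.5% (41.9% to 47.1%).

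The difference in Prkaa2 was present within the ATII gate and among cells of no gate, and not detectable in the ATI and keratin-high gates. Among ATII-gated cells it was at 5.08 CPM in GFP-positive cells (4.46 to 5.76, 241 UMIs) and 8.54 CPM in Stk11-positive cells (7.83 to 9.30, 535 UMIs), a ratio of 0.594 (0.508 to 0.693), with shares of catalytic UMIs of 34.4% and 48.9%. Among ATI-gated cells the levels were 5.27 and 5.44 CPM, a ratio of 0.970 (0.523 to 1.79) on 23 and 24 UMIs. Among keratin-high cells they were 3.17 and 2.15 CPM, a ratio of 1.47 (0.750 to 3.22) on 63 and 10 UMIs. Both intervals are wide and hold no change, and that of the ATI gate also holds the ratio of the ATII gate. Whether the gates differ in this ratio was not tested. In both classes the interval of the keratin-high level lies below that of the ATII level. Cells of no gate, which also hold stromal and immune cells as given below, gave a ratio of 0.651 (0.463 to 0.915).

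**Figure D5:**
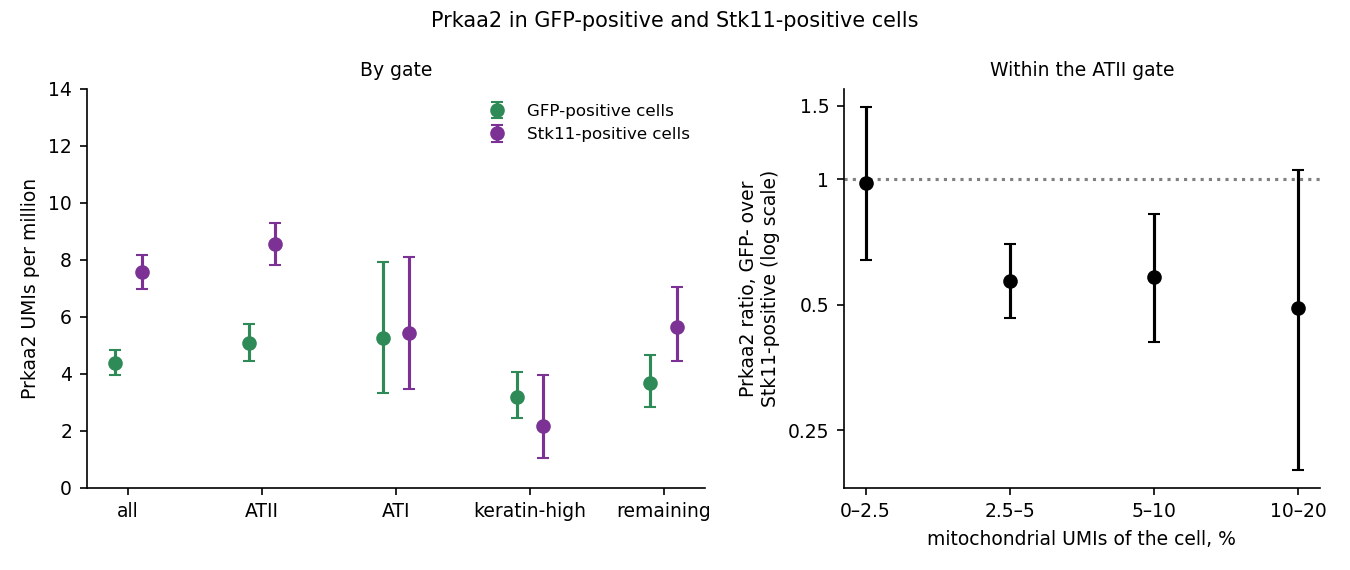
Left, Prkaa2 level in CPM in GFP-positive and Stk11-positive cells, over all filtered cells and within each gate. Right, the ratio of these levels (log axis) in ATII-gated cells of like mitochondrial share, all with exact 95% intervals for counting error only. In the ATII gate the levels are 5.08 and 8.54, and the ratio is 0.980 under 2.5% mitochondrial UMIs and between 0.492 and 0.584 above.

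Inside the ATII gate Prkaa2 was lower in GFP-positive cells at every depth, and level between the classes in cells with the lowest mitochondrial share. By depth the ratio of GFP-positive to Stk11-positive cells was 0.429, 0.486, 0.540 and 0.704 for cells under 10000, of 10000 to 20000, of 20000 to 30000 and over 30000 UMIs, and the interval of the first, on 6 and 26 UMIs, reached 1.07. By mitochondrial share it was 0.980 (0.641 to 1.49) under 2.5%, 0.571 (0.465 to 0.698) from 2.5% to 5%, 0.584 (0.408 to 0.826) from 5% to 10% and 0.492 (0.201 to 1.05) above. In the lowest of these bins the levels were 6.66 and 6.79 CPM on 42 and 56 UMIs.

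The ratio of Prkag2 between the trap classes stayed within 1.5-fold in every gate. GFP-positive over Stk11-positive, its ratio was 1.26 (1.13 to 1.41) in ATII-gated cells, 1.12 (0.791 to 1.59) in ATI-gated cells, 1.48 (1.09 to 2.06) in keratin-high cells and 1.31 (1.08 to 1.59) in cells of no gate. In the ATII gate the interval on the log2 scale, 0.17 to 0.50, holds the median of all genes there (0.18), so relative to that median a difference was not detectable, nor was one in the ATI gate or among cells of no gate. The interval lies above the median in the keratin-high gate (0.12 to 1.04, median 0.02) and over all cells of the classes (0.27 to 0.51, median 0.22). Prkab2 was in GFP-positive and Stk11-positive cells of the keratin-high gate at 4.23 and 6.46 CPM, a ratio of 0.654 whose interval reached 1.03, and among cells of no gate at 3.12 against 4.70 CPM, a ratio of 0.665 (0.458 to 0.964). The 583 Stk11-positive cells of no gate held 20 endothelial-like, 47 fibroblast-like and 15 myeloid-like cells, and the 734 GFP-positive ones held 1, 1 and 3. Prkab2 was at 12.6, 10.9 and 5.80 CPM in these cell classes, and their part in the ratio was not tested.

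Genes that act with AMPK were described from 6 lists with 51 genes in all, of which those with at least 10 CPM in either group were counted. For ATI over ATII cells 9 of 43 were over 1.5-fold higher and 11 lower, for keratin-high over ATII cells 8 and 9 of 46, for keratin-high over ATI cells 5 and 4 of 42, and for GFP-positive over Stk11-positive cells 0 and 3 of 43. The shares of all genes past 1.5-fold given above (40.1%, 43.3%, 22% and 11.6%) are the measure for these. A gene that reached 10 CPM in only 1 of the groups is counted because it is high there, so its direction is partly set by that limit. Such genes were 1 of the 9 higher and 4 of the 11 lower for ATI over ATII cells (Strada upward, and Lipe, Fnip2, Ppargc1a and Tbc1d4 downward), 3 of 8 and 5 of 9 for keratin-high over ATII cells, 3 of 5 and 1 of 4 for keratin-high over ATI cells, and 1 of the 3 lower (Fnip2) for the trap classes.

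Of the kinases upstream of AMPK and the partners of LKB1, Stk11 itself was lowest in keratin-high cells. Stk11 was at 24.3 CPM in ATII-gated, 31.8 CPM in ATI-gated and 10.8 CPM in keratin-high cells, 2.26-fold lower in the last than in the first (2.02 to 2.54). The trap cuts the Stk11 transcript short, and GFP UMIs were at 21.0, 34.9 and 51.7 CPM in the same gates. The part of the trap in the Stk11 levels was not tested. UMIs of Stk11 were what defined the Stk11-positive class, so the gene was left out of that comparison. Cab39, which codes for the MO25 scaffold of the LKB1 complex, was at 70.5, 136 and 119 CPM in the same order. Strada, the pseudokinase of that complex, was at 8.25 and 14.2 CPM in ATII-gated and ATI-gated cells. Camkk2 was at 11.2, 7.79 and 7.96 CPM, and at 8.36 CPM in GFP-positive against 12.2 CPM in Stk11-positive cells, 1.46-fold lower (1.33 to 1.61). Of the 8 genes of this list, 2 were higher and 0 lower in ATI than in ATII cells, and 1 each way in keratin-high than in ATII cells. Against ATI-gated cells, keratin-high cells had 1 of 7 lower, which was Stk11.

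Of 8 lipid targets with at least 10 CPM, 5 were over 1.5-fold lower and 0 higher in ATI-gated than in ATII-gated cells, where 11% of all genes with at least 2 CPM were lower, and their median log2 ratio was -0.73 where all genes had 0.38. In keratin-high against ATII-gated cells 2 were lower, 0 higher and 6 within 1.5-fold, where 10.4% of all genes were lower, with a median of -0.23 where all genes had 0.39. Acaca, the acetyl-CoA carboxylase that AMPK inhibits, was at 74.5 CPM in ATII-gated, 32.9 CPM in ATI-gated and 24.4 CPM in keratin-high cells. Srebf1, the transcription factor of fatty acid synthesis genes, was at 125, 51.2 and 48.2 CPM. Srebf2, its counterpart for sterol synthesis, was at 49.5 and 28.9 CPM in ATII-gated and ATI-gated cells. Lipe, hormone-sensitive lipase, was at 13.7, 5.99 and 11.7 CPM in the 3 gates. None of the 8 passed 1.5-fold between GFP-positive and Stk11-positive cells, where Acaca was at 52.0 and 63.7 CPM.

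Of 11 genes of mTORC1 control and the lysosome, 1 was higher and 2 were lower in ATI-gated than in ATII-gated cells, and 1 and 3 in keratin-high cells. Flcn and Fnip2, which form the folliculin complex on lysosomes, were lower outside the ATII gate, and Fnip2 reached 10 CPM only there, as Flcn did against keratin-high cells. Flcn was at 22.7 CPM in ATII-gated, 12.9 CPM in ATI-gated and 9.20 CPM in keratin-high cells, and Fnip2 at 15.1, 9.37 and 7.01 CPM. Both were also the members of this list past 1.5-fold between the trap classes, Flcn at 13.7 CPM in GFP-positive and 21.5 CPM in Stk11-positive cells and Fnip2 at 9.63 and 14.6 CPM. Rheb, the GTPase that activates mTORC1, ran the other way between the gates, at 111, 188 and 235 CPM. Sesn2, a leucine-sensing inhibitor of mTORC1, was at 35.0 CPM in ATII-gated and 19.4 CPM in keratin-high cells. Tsc2, which AMPK phosphorylates, stayed within 1.5-fold throughout, at 22.5, 24.5 and 20.2 CPM in the gates. No gene of 10 in this list passed 1.5-fold between keratin-high and ATI-gated cells.

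Among 9 genes of autophagy and mitochondria, 3 were higher and 1 lower in ATI-gated cells, and 0 and 1 in keratin-high cells, against ATII-gated cells. Ppargc1a, the coactivator of mitochondrial biogenesis, which reached 10 CPM only in the ATII gate, was the lower gene in both, at 14.6 CPM in ATII-gated, 4.35 CPM in ATI-gated and 4.56 CPM in keratin-high cells. Mtfr1l was at 120, 260 and 162 CPM in the 3 gates, and in ATII-gated and ATI-gated cells Mff, the receptor of the division machinery on mitochondria, was at 78.4 and 127 CPM and Ulk2 at 11.4 and 18.4 CPM. Ulk1, the autophagy kinase that AMPK phosphorylates, was at 32.8, 25.4 and 23.6 CPM and passed 1.5-fold in no comparison.

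Glucose handling genes included a pair of related genes with opposite patterns. Tbc1d4 and Tbc1d1 code for related Rab GTPase-activating proteins that AMPK phosphorylates and that hold back glucose transporters. Tbc1d4 was at 20.0 CPM in ATII-gated (the only gate in which it reached 10 CPM), 5.17 CPM in ATI-gated and 2.61 CPM in keratin-high cells, 7.66-fold lower in the last than in the first (6.13 to 9.68). Tbc1d1 was at 0.570, 1.20 and 11.5 CPM, 20.3-fold higher in keratin-high than in ATII-gated cells (16.1 to 25.8). Slc2a1, the glucose transporter GLUT1, was at 18.4, 10.9 and 46.9 CPM, Pfkfb3, an activator of glycolysis, at 2.89, 6.59 and 10.5 CPM, and Txnip, which lowers glucose uptake, at 260.5, 401 and 197 CPM. Gys1, glycogen synthase, was at 21.0 CPM in ATII-gated and 13.6 CPM in ATI-gated cells. Between the trap classes Tbc1d4 was the gene of 5 past 1.5-fold, at 11.3 CPM in GFP-positive and 18.2 CPM in Stk11-positive cells. The counts of this list were 1 higher and 3 lower of 5 for ATI over ATII, 3 and 2 of 7 for keratin-high over ATII, and 3 and 2 of 6 for keratin-high over ATI cells. Tbc1d1 and Pfkfb3, 2 of the 3 higher genes in each of the last comparisons, reached 10 CPM only in the keratin-high gate, so these counts are partly set by the limit.

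Of the 5 listed enzymes that remove or switch off AMPK, 2 had at least 10 CPM in the comparison of the ATI and ATII gates and 3 in that of the keratin-high and ATII gates. Mkrn1, a ubiquitin ligase of the α subunits, was at 44.9 CPM in ATII-gated, 77.7 CPM in ATI-gated and 90.8 CPM in keratin-high cells, and Ppm1a, a phosphatase of the activation loop, at 62.5, 102 and 104 CPM. Ube2o, a ubiquitin enzyme known to target α2, was at 8.37 CPM in ATII-gated and 13.7 CPM in keratin-high cells. Mkrn1 and Ppm1a were over 1.5-fold higher in both other gates than in the ATII gate, where 31.3% (ATI) and 34% (keratin-high) of all genes with 2 CPM or more were. Ube2o was also past 1.5-fold in keratin-high cells, but was counted only because it reached 10 CPM there. None of the 3 passed 1.5-fold between keratin-high and ATI-gated cells or between the trap classes.

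Genes with the pattern most like each member were sought over 7 cell classes (the 3 gates, endothelial-like, fibroblast-like, myeloid-like and the other ungated cells) among 11077 genes, by the root mean square difference of centred log2 levels with 1 CPM added. Prkaa2 was nearest to Oaz2 (0.226) and Kyat1 (0.230), and Prkab1 to Plekha7 (0.217) and Gabpb1 (0.237). The others had closer neighbours. Prkaa1 was nearest to Spty2d1 (0.116) and Furin (0.119), Prkab2 to 4930402H24Rik (0.0831) and Ttl (0.101), Prkag1 to Adprhl2 (0.0907) and Rbms2 (0.0940), and Prkag2 to Papss1 (0.0813) and Trmt13 (0.0819). The classes come from 1 pooled sample, so this is a description of these cells.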

How the data were processed

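The deposited values were whole UMI counts, made by the authors with Cell Ranger 3.0.2 on mm10 and not normalised. All libraries stood in 1 matrix, which was read as 1 sample. The gene annotation release they used, and any subsampling of reads between libraries, are not given in the sources used here. Subsampling would lower the UMI totals of a library and leave its proportions of genes as they were.

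Cells with at least 500 genes and at most 20% mitochondrial UMIs were kept, which removed 2081 and then 1753 cells. UMIs were summed per cell group and divided by the total, so deep cells weigh more. No doublet caller was run and possible doublets were kept. Leaving out ATI-gated and keratin-high cells with Sftpc of 500 or more per 10000 was an alternative. Shares of cells with a UMI were also given after thinning each cell to 5000 UMIs (seed 1). The 1.5-fold size was counted over genes with at least 10 CPM in either group, and a floor of 2 CPM, which takes in all 6 members, was added after seeing the data, as were cells of 20000 to 30000 UMIs with at most 5% mitochondrial UMIs and the depth and mitochondrial bins within comparisons. The other alternatives changed the mitochondrial limit, gene minimum, gates, depth range, weighting of cells, stromal and cycling cells, library totals, centring and fold. The ratio step was tested on simulated data. Endothelial-like, fibroblast-like, myeloid-like and cycling cells were taken outside the gates from sums per 10000 UMIs of Pecam1, Cdh5 and Ramp2 (10 or more), Col1a1, Col1a2, Col3a1 and Mgp (50 or more), Ptprc, Tyrobp, Fcer1g and Laptm5 (20 or more) and Top2a and Mki67 (5 or more).

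The text names the 6 members and Prkag3, of each gene list at most the 4 genes with the largest fold past 1.5-fold with at least 10 CPM, with Stk11, Camkk2, Acaca, Tsc2 and Ulk1 whatever their values, and the 2 genes most like each member. Cyp27a1 was named after its values were seen. An allele shared by all mice and a gene that the naming rule took are not reported here. The members, gates and lists were chosen with earlier results of these data known. Values and intervals were computed with scipy 1.17.1, pandas 2.3.3 and numpy 2.4.6 under Python 3.11.15, and figures drawn with matplotlib 3.10.9.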

Additional observations from a re-analysis of the deposited data

How the results depend on the processing

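No paired analysis was possible because the cells are not assigned to mice and no test was run. Prkaa2 was past 1.5-fold lower in keratin-high than in ATII-gated cells under all 13 alternatives (log2 ratio from -1.77 to -1.13), and Prkab2 past 1.5-fold higher in keratin-high and in ATI-gated than in ATII-gated cells under all 13, though among cells under 10000 UMIs the ATI over ATII ratio was 0.922 (0.404 to 1.92). The others held less widely. Prkag1 was past 1.5-fold for ATI over ATII cells under 10 of 13, Prkab1 under 8 of 13, Prkaa2 in that comparison, not past it as reported, under 7 of 13, Prkaa1 for keratin-high over ATI cells under 11 of 13, Prkaa2 for keratin-high over ATI cells under 10 of 13, and Prkaa2 for GFP-positive over Stk11-positive cells under 14 of 16. Of the log2 ratios of members under alternatives, 16 changed sign. Of these, 15 were of ratios within 1.5-fold as reported, and 1 was that of Prkaa2 for GFP-positive over Stk11-positive cells within the keratin-high gate alone (0.56).

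The number of members past the fold went from 3 to 5 with a smaller limit (0.32 on the log2 scale, against 0.58) and to 0 with a fold of 2 for ATI over ATII cells, and from 2 to 5 with the smaller limit for keratin-high over ATII cells. For keratin-high over ATI cells it went from 2 to 1 with the mean of per-cell CPM, with cells of 8000 to 30000 UMIs and with cells of 20000 to 30000 UMIs and at most 5% mitochondrial UMIs, and to 0 with looser gates or a fold of 2. For GFP-positive over Stk11-positive cells it went from 1 to 0 in the ATI gate alone or with a fold of 2, and to 2 with the smaller limit. The Prkaa2 share of catalytic UMIs in the ATII gate was 48.1% with the mean of per-cell CPM, 46.8% at 8000 to 30000 UMIs and 46.9% at 20000 to 30000 UMIs with at most 5% mitochondrial UMIs. In the ATI gate it was 32.0% with looser gates and 25% under the last of these, and in the keratin-high gate 13.3% with stricter gates, 21.8% with looser gates and 13.5% under the last. The cause of these shifts was not tested. The other gate limits and the removal of Sftpc-rich ATI-gated and keratin-high cells were not applied to the GFP comparison, whose classes over all cells use no gate, so its values within gates rest on 1 set of limits and doublets may remain in it. Library totals do not enter the shares. With 70 Prkaa2 UMIs in ATI-gated cells and 10 in Stk11-positive keratin-high cells, counting error limits the comparisons that rest on them.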

Other observations

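The cells with neither a GFP nor a Stk11 UMI, 5427 with a median of 12780 UMIs, had 6.90 CPM of Prkaa2 (6.34 to 7.50) and 10.4 CPM of Prkaa1, with a Prkaa2 share of catalytic UMIs of 39.9%, between those of the GFP-positive and the Stk11-positive cells. The 29 cells with both gave 20 UMIs of Prkaa1 and 7 of Prkaa2. Among ATII-gated cells with over 10% mitochondrial UMIs, Prkab2 was at 5.06 CPM and Prkag1 at 25.7 CPM, against 2.16 and 39.9 CPM in those under 2.5%. In 41 ungated cells with high Top2a and Mki67, catalytic UMIs numbered 12, of which 1 was Prkaa2.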
